A study of Mus musculus with 8 samples.

Results

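The genes described here are 9 regulators and effectors of the epithelial-mesenchymal transition of gastrulation: the zinc finger repressors Snai1, Snai2, Zeb1 and Zeb2, the basic helix-loop-helix factor Twist1, and the mesenchymal genes Cdh2, Vim, Pdgfra and Itga5. They were taken by name, and every probe set (the group of short probes that reads a transcript) annotated to them was read in Foxa2 null and wild-type mouse embryos. Their selection rule uses no measured value, although the list was drawn up with earlier results of these data known. This gave 11 of 12422 probe sets for 8 genes on the U74Av2 array, where Zeb2 had none in the annotation used, and 25 of 45037 probe sets for all 9 genes on the MOE430v2 array, out of 18336 genes on either array. Of these, 9 on U74Av2 and 23 on MOE430v2 passed a filter on mean signal, which took out the dimmest 30% of each array type. Removed were 1 probe set each of Zeb1 and Pdgfra on U74Av2 and of Zeb1 and Itga5 on MOE430v2.

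At gastrulation, epiblast cells that enter the primitive streak lose epithelial junctions and their basement membrane contact and leave as mesenchymal cells. Snail family factors repress E-cadherin (Cdh1) and are switched on in the streak downstream of Fgf signalling. Zeb factors repress epithelial genes through the same kind of DNA site, and N-cadherin (Cdh2), vimentin (Vim), the Pdgf receptor Pdgfra and the fibronectin receptor subunit Itga5 mark or serve the cells that have left. Foxa2 is the forkhead factor without which node, notochord and gut endoderm do not form, tissues whose cells also pass through the streak.

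Promoters are shown for 3 genes, those of the 2 genes whose pools of the 2 genotypes came apart most clearly (Twist1 and Vim, below) and that of Snai1, a repressor that can act on sites of the CACCTG kind. Each is the run of 250 bases just before the annotated start, from the RefSeq table of build GRCm38.p6, plus strand: Twist1 at chr12:33957421-33957670, Vim at chr2:13574061-13574310 and Snai1 at chr2:167537945-167538194. Capitals mark TATAAA in Twist1 and Vim and CACCTG in Snai1.
Twist1: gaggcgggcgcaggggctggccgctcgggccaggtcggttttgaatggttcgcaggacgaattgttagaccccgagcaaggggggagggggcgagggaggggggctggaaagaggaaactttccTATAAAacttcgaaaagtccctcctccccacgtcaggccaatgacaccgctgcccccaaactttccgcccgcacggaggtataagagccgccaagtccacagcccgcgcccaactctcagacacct
Vim: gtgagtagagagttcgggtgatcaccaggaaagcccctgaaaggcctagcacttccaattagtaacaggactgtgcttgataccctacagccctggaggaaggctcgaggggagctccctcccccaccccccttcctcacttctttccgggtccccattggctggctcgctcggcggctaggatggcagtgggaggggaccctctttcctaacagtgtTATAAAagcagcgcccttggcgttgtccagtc
Snai1: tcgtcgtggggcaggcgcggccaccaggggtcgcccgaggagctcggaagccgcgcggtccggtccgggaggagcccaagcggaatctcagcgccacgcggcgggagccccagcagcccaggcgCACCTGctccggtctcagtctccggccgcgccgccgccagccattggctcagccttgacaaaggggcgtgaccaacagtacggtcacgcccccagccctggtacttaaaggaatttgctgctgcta

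In the promoter table, 6 of the 9 genes had an entry, with 9 windows of this length. CACCTG, read on both strands, was in 1 member window (Snai1, 126 bases before the start) and in 17.2% of all 32851 windows. TATAAA, on both strands, was in 2 member windows, 126 bases before the start in Twist1 and 32 bases before it in Vim, and in 12.4% of all. The forkhead core TGTTTAC, on both strands, was in 0 member windows and in 3.17% of all, and its variant TGTTTGC in 0 and 4.3%. These matches describe the letters only.

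The study set out to find genes that depend on Foxa2 in the gastrula. Foxa2 null embryos were made from homozygous null embryonic stem cells by tetraploid complementation, in which a wild-type tetraploid host supplies the visceral endoderm and other extra-embryonic tissue, so the null embryos keep wild-type host cells. Pools of 53 and 48 Foxa2 null embryos and of 53 and 50 wild-type ICR embryos, all at embryonic day 7.5, were freed of the extra-embryonic region and extracted. ICR is also written on the MOE430v2 null arrays, which leaves the strain of the null cells unsettled, and embryo origin and genotype cannot be told apart. Embryos ran from mid-streak to headfold, and the study's staging put wild-type pool 2 as the youngest. Each extract was put on 1 array of each platform, so n is 2 pools per genotype and MOE430v2 adds no pool.

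Values below are log2 of the deposited signal, and a log2 ratio is Foxa2 null minus wild-type. Arrays of a platform were alike in median signal (48.15 to 52.8 for U74Av2, 155 to 165 for MOE430v2), and their number limits the precision. Foxa2 itself was lower in all 4 null-against-wild-type comparisons on both platforms, with log2 signals of 6.39 and 6.55 in Foxa2 null pools and 7.37 and 8.08 in wild-type pools on U74Av2 (log2 ratio -1.25, limma adjusted p = 0.13). On the mean of both platforms its log2 ratio was -1.07 ± 0.20 (SE, n = 2 pools each, limma adjusted p = 0.0309), and without wild-type pool 2 it was -0.75 (limma adjusted p = 0.0963). Null pools hold wild-type host cells, whose part in their remaining Foxa2 signal was not tested. Visceral endoderm markers had positive ratios for 7 of 8 genes on U74Av2 (median 0.52), beside 3120 of all 6410 genes. On MOE430v2 they had positive ratios for 9 of 9 (median 0.38), beside 6817 of all 14180 genes, and no marker listed was called. Their summed signal was 8184 and 5576 in Foxa2 null pools against 5446 and 5550 in wild-type pools on U74Av2, and 77598 and 63735 against 54954 and 62305 on MOE430v2, so it was highest in null pool 1 on both. Trophoblast markers (6 genes on each platform) summed to 5688 and 5681 in Foxa2 null pools and 4706 and 4251 in wild-type pools on MOE430v2. On U74Av2 the sums were 1011 and 1014 in Foxa2 null pools against 879 and 693 in wild-type pools. Single trophoblast genes were split, with ratios above 0 for 2 of 4 tested on MOE430v2 and 3 of 5 on U74Av2.

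No transition gene changed by the test. By limma with Benjamini-Hochberg adjustment over all probe sets, 0 of 9 member probe sets on U74Av2 passed an adjusted p under 0.05, where 0.173% of all probe sets were called lower and 0.104% higher in Foxa2 null embryos. On MOE430v2 0 of 23 passed, where 0.244% were called lower and 0.19% higher. At an unadjusted p under 0.05 there was 1 lower on U74Av2 (Twist1), against 5.01% of all probe sets. On MOE430v2 there were 1 lower (Twist1), against 6.07%, and 3 higher (all of Vim), against 6.03%. In the fit on the mean of both platforms, 0 of 8 genes passed, with 1.06% of 5933 genes called lower and 1.35% higher, and at an unadjusted p under 0.05 there were 1 lower (Twist1, beside 7.84% of genes) and 0 higher (7.42%). With 2 pools a side an exact permutation gives no p below 0.333, so single probe sets were tested only in the fit across all of them.

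The median log2 ratio of the member probe sets was 0.00 on U74Av2 (all probe sets: -0.02) and -0.16 on MOE430v2 (all probe sets: 0.00). On the mean of both platforms the member genes had a median of -0.03, beside -0.01 for all genes. Foxa2 null values lay below both wild-type values in 3 of 9 member probe sets on U74Av2 (21.4% of all) and above both in 3 (18.6% of all). On MOE430v2 they lay below in 5 of 23 (21.8% of all) and above in 4 (21.5% of all). On the mean of both platforms they lay below for 1 of 8 genes (Twist1, 23.5% of all genes) and above for 1 (Vim, 22.1% of all). Ratios were below 0 for 4 of 9 member probe sets on U74Av2 (52.4% of all), 14 of 23 on MOE430v2 (50.1% of all) and 4 of 8 genes on the mean of both (51.7% of all). On MOE430v2 the shares of separated probe sets sat near the background, and on U74Av2 the list is too short to set its share apart. In whole-embryo RNA, fewer cells of a type and less RNA per cell cannot be told apart.

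**Figure D1:**
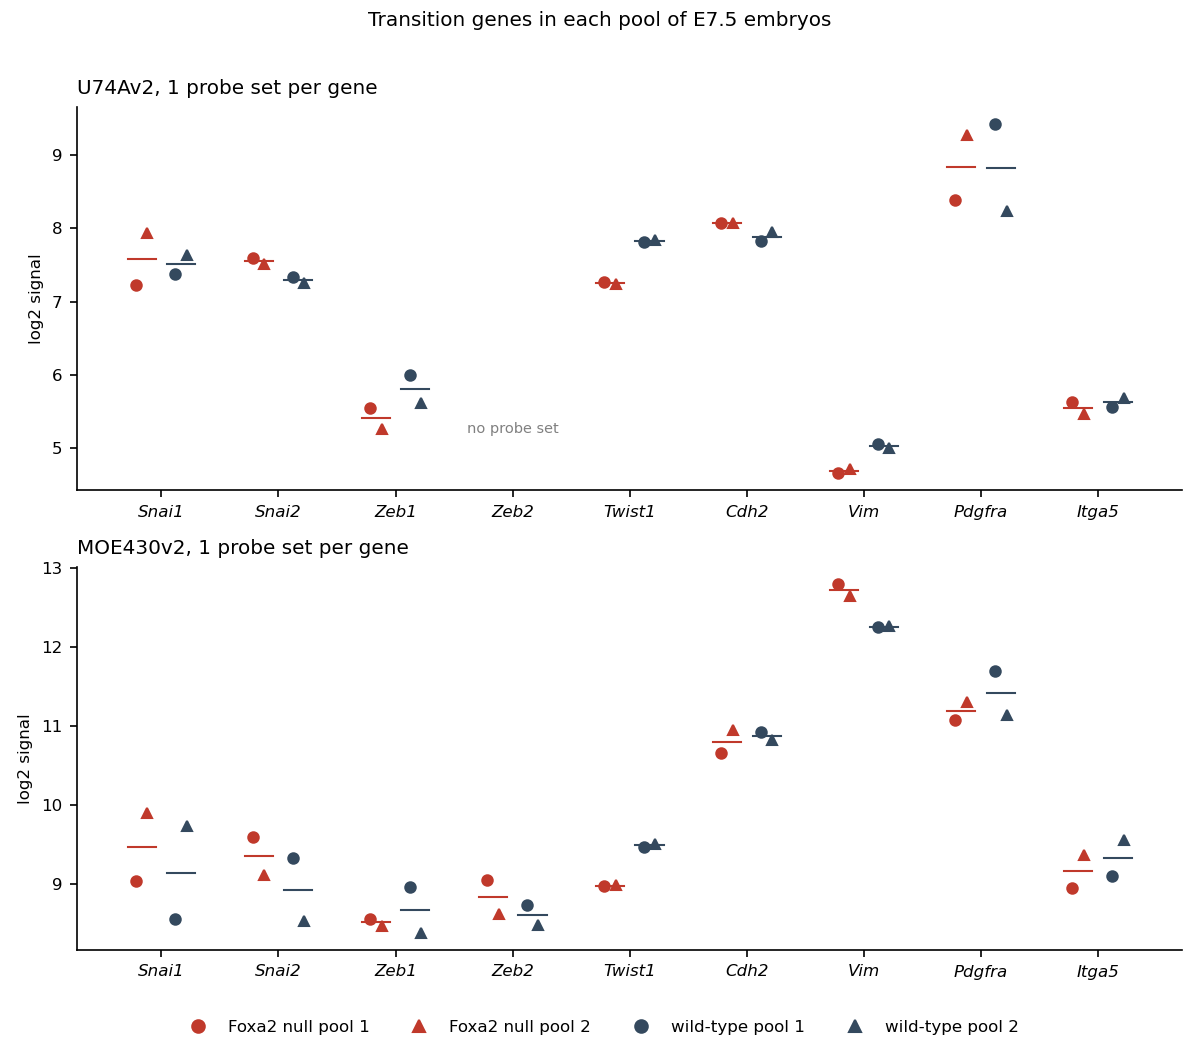
Log2 signal of each transition gene in each pool, 1 probe set per gene, on U74Av2 (top) and MOE430v2 (bottom). Foxa2 null pools stand left of wild-type pools, circles are pool 1, triangles are pool 2 and bars are means of 2 pools. Twist1 values of the same genotype nearly coincide and the genotypes stand apart, whereas those of Snai1 and Pdgfra spread more within a genotype than between them. Levels of different genes come from different probe sets and are not comparable.

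Twist1, a mesoderm and neural crest factor that drives mesenchymal behaviour, had the member difference most alike on both platforms. Its U74Av2 log2 signal was 7.26 and 7.24 in Foxa2 null pools against 7.81 and 7.85 in wild-type pools. On MOE430v2 it was 8.96 and 8.98 in Foxa2 null pools against 9.46 and 9.51 in wild-type pools. Both null pools were low and both wild-type pools were high on each array type, with no overlap. The log2 ratio was -0.57 ± 0.17 on U74Av2 (SE, limma adjusted p = 0.265) and -0.51 ± 0.18 on MOE430v2 (SE, limma adjusted p = 0.293). On the mean of both platforms it was -0.54, with a 95% interval of -0.86 to -0.23 and a limma adjusted p of 0.0848, which missed the threshold. The gap between 2 pools of 1 genotype was at most 0.04, the smallest among the member genes on both platforms.

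Snai1, the Snail family repressor needed for cells to leave the mouse streak, differed more between pools than between genotypes. On MOE430v2 its log2 signal was 9.03 and 9.90 in Foxa2 null pools against 8.55 and 9.73 in wild-type pools. On U74Av2 it was 7.23 and 7.94 in Foxa2 null pools against 7.38 and 7.63 in wild-type pools. Pool 2 was the higher pool of each genotype on both platforms, and the genotypes overlapped on both. The log2 ratios were 0.33 on MOE430v2 (limma adjusted p = 0.785) and 0.08 on U74Av2 (limma adjusted p = 0.955), while the pool gap on MOE430v2 was 0.86 in Foxa2 null embryos and 1.18 in wild-type embryos.

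Many streak genes had the same order of pools, with pool 2 above pool 1 in both genotypes for 8 of 14 streak signals and factors on MOE430v2 and 9 of 13 on U74Av2. The order was mixed between genotypes for 5 and 3 of them, Mesp2 and Wnt3a on MOE430v2 included. The genes given next were chosen after their values were seen. Mesp1, a factor of nascent mesoderm, read 10.29 and 11.23 in Foxa2 null pools against 9.60 and 10.40 in wild-type pools on MOE430v2. Eomes, a T-box factor of the streak, read 9.998 and 11.06 in Foxa2 null pools against 8.52 and 9.87 in wild-type pools, and Mixl1 had pool gaps of 1.03 in Foxa2 null and 0.88 in wild-type embryos. Of all probe sets, 27.8% on MOE430v2 and 30.3% on U74Av2 had pool 2 above pool 1 in both genotypes, as did 5 of 23 and 1 of 9 member probe sets.

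Snai2, the family member linked to mesoderm and neural crest migration, had positive ratios for each of its probe sets. On MOE430v2 the probe set 1418673_at read 8.19 and 7.79 in Foxa2 null pools against 7.78 and 6.88 in wild-type pools, and 1447643_x_at read 9.59 and 9.10 against 9.33 and 8.52. On U74Av2 it read 7.60 and 7.52 in Foxa2 null pools against 7.34 and 7.26 in wild-type pools. The U74Av2 values did not overlap, the values of 1418673_at were separated by 0.01 between null pool 2 and wild-type pool 1, and those of 1447643_x_at overlapped. The log2 ratios were 0.66, 0.42 and 0.26 in that order (limma adjusted p = 0.537, 0.607 and 0.704). Pool 1 was the higher pool of each genotype, opposite to Snai1, and on the mean of both platforms the ratio was 0.34 with an interval of -0.07 to 0.76.

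Zeb1, a zinc finger and homeodomain repressor of epithelial genes, had negative ratios for its 4 tested probe sets, none past the threshold. On U74Av2 it read 5.55 and 5.26 in Foxa2 null pools against 5.99 and 5.62 in wild-type pools, a log2 ratio of -0.40 (limma adjusted p = 0.731) with no overlap. Its brightest MOE430v2 probe set, 1418926_at, read 8.56 and 8.46 in Foxa2 null pools against 8.96 and 8.38 in wild-type pools, so the null values lay between the wild-type values (log2 ratio -0.16). The other MOE430v2 probe sets gave -0.32 without overlap (1443005_at) and -0.24 with overlap (1446127_at).

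Zeb2, its paralogue needed for neural crest and mesoderm development, was read by 5 probe sets on MOE430v2 that did not point one way. Of these, 1422748_at, 1434298_at and 1456389_at had ratios of -0.37, -0.39 and -0.72, and 1454200_at and 1458941_at of 0.18 and 0.22. The most negative, 1456389_at, read 7.28 and 6.60 in Foxa2 null pools against 7.86 and 7.47 in wild-type pools (limma adjusted p = 0.511). The one with the highest signal, 1458941_at, read 9.04 and 8.61 in Foxa2 null pools against 8.73 and 8.48 in wild-type pools (limma adjusted p = 0.754). The genotypes were apart in 1456389_at and overlapped in 1458941_at, and which transcript each probe set reads is not given in the sources used here.

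**Figure D2:**
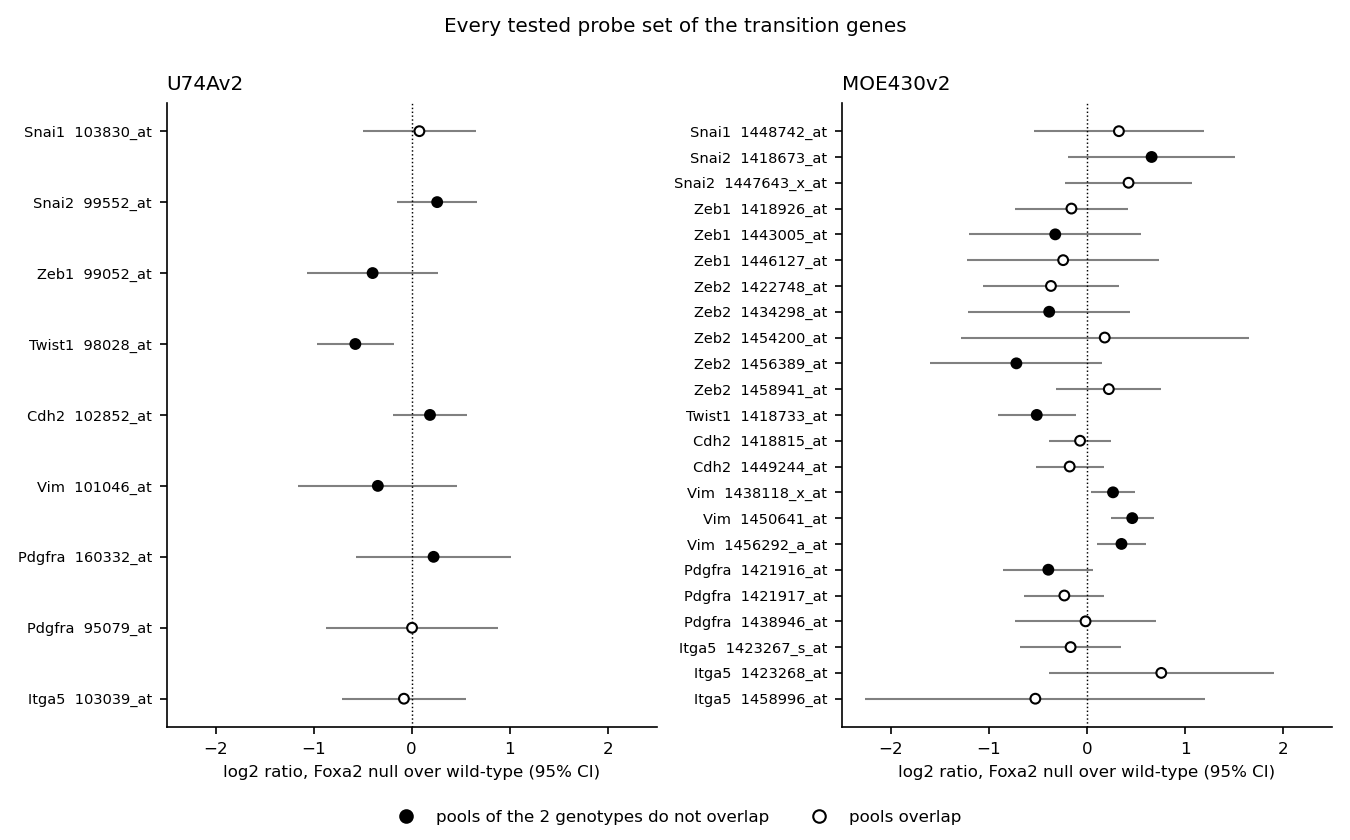
Log2 ratio, Foxa2 null over wild-type, with 95% confidence interval from limma for each of the 9 U74Av2 (left) and 23 MOE430v2 (right) member probe sets tested. Filled points are probe sets whose Foxa2 null and wild-type pools do not overlap. Only the intervals of Twist1 on both platforms and of the 3 Vim probe sets on MOE430v2 leave out 0, before any adjustment.

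Vim, the intermediate filament protein of mesenchymal cells, went opposite ways on the 2 array types. On MOE430v2 the probe set 1450641_at read 12.80 and 12.65 in Foxa2 null pools against 12.25 and 12.27 in wild-type pools, a log2 ratio of 0.46 ± 0.10 (SE, limma adjusted p = 0.088). Both other MOE430v2 probe sets, 1456292_a_at and 1438118_x_at, also had null pools above wild-type pools without overlap, at 0.35 and 0.27 (limma adjusted p = 0.247 and 0.334). On U74Av2 the only probe set annotated to Vim read 4.66 and 4.71 in Foxa2 null pools against 5.05 and 5.00 in wild-type pools, a log2 ratio of -0.35 ± 0.36 (SE, limma adjusted p = 0.821). The U74Av2 probe set was at percentile 40.2 of mean signal on its array, with raw signals of 25.3 and 26.1 in Foxa2 null pools against 33.2 and 32.1 in wild-type pools, while the MOE430v2 probe sets were at percentiles 94.3 to 97.6. The mean of both platforms, 0.06, therefore averages values of opposite sign. A further U74Av2 probe set, which the study's supplement but not the annotation used links to Vim, was not analysed here, so the U74Av2 direction rests on 1 dim probe set.

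On MOE430v2 Vim was higher in both Foxa2 null pools, in which the visceral endoderm and trophoblast marker sums were also higher. The sums of parietal endoderm, primitive blood, endothelium and epiblast markers overlapped between genotypes on MOE430v2. In the visceral endoderm sum, null pool 2 was close to wild-type pool 2 (63735 against 62305). Between null pools 1 and 2 on MOE430v2, Vim (1450641_at) read 12.80 and 12.65, and the visceral endoderm sum was 77598 and 63735. On U74Av2 the 1 dim Vim probe set was lower in both Foxa2 null pools (4.66 and 4.71 against 5.05 and 5.00 in wild-type pools). The visceral endoderm and trophoblast sums were higher in both null pools on U74Av2. The part of host tissue in the Vim values was not tested.

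Cdh2, the N-cadherin that mesodermal cells carry in place of Cdh1, differed little between genotypes. On MOE430v2 the probe set 1418815_at read 10.66 and 10.94 in Foxa2 null pools against 10.92 and 10.82 in wild-type pools, with overlap and a log2 ratio of -0.07 (95% interval -0.39 to 0.25). Its other probe set there, 1449244_at, had a ratio of -0.18. On U74Av2 Cdh2 read 8.08 and 8.07 in Foxa2 null pools against 7.83 and 7.95 in wild-type pools, without overlap, and the log2 ratio was 0.19 (limma adjusted p = 0.781).

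Cdh1, the epithelial partner in that switch, was looked at after its values were seen. It read 12.96 and 13.06 in Foxa2 null pools against 12.76 and 12.67 in wild-type pools on MOE430v2 (log2 ratio 0.29, limma adjusted p = 0.245). On U74Av2 it read 7.05 and 7.30 in Foxa2 null pools against 7.22 and 7.30 in wild-type pools (log2 ratio -0.08), so the sign was not shared. Cdh1 lies on chromosome 8, whose genes had a positive median ratio, as given at the end.

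Pdgfra, the Pdgf receptor of nascent and paraxial mesoderm and of extra-embryonic mesoderm, had a wide spread between pools. On U74Av2 the probe set 95079_at read 8.39 and 9.28 in Foxa2 null pools against 9.42 and 8.24 in wild-type pools. On MOE430v2 1421917_at read 11.07 and 11.30 in Foxa2 null pools against 11.70 and 11.14 in wild-type pools. In both, null pool 2 stood above null pool 1 and wild-type pool 1 above wild-type pool 2, and the genotypes overlapped. The log2 ratios were 0.00 (95% interval -0.88 to 0.88) and -0.23 (-0.64 to 0.18). A second MOE430v2 probe set, 1421916_at, read 8.95 and 9.42 in Foxa2 null pools against 9.53 and 9.62 in wild-type pools, without overlap (log2 ratio -0.39, limma adjusted p = 0.49). The remaining tested probe sets had ratios of -0.01 on MOE430v2 (1438946_at) and 0.22 on U74Av2 (160332_at).

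Itga5, the integrin subunit that binds fibronectin, also varied more between pools than between genotypes. Its brightest MOE430v2 probe set, 1423267_s_at, read 8.95 and 9.37 in Foxa2 null pools against 9.10 and 9.55 in wild-type pools (log2 ratio -0.17). The probe set 1423268_at read 7.56 and 8.37 in Foxa2 null pools against 6.45 and 7.97 in wild-type pools (log2 ratio 0.76, 95% interval -0.39 to 1.90). Pool 2 was the higher pool of each genotype in both, and the genotypes overlapped. The dimmer 1458996_at read 4.96 and 6.28 in Foxa2 null pools against 6.61 and 5.69 in wild-type pools, also with overlap, and its ratio had the opposite sign to that of 1423268_at (-0.53, limma adjusted p = 0.832). On U74Av2 Itga5 read 5.63 and 5.46 in Foxa2 null pools against 5.56 and 5.69 in wild-type pools (log2 ratio -0.08).

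Set beside the pool gaps, the genotype difference was smaller than the larger gap between pools of 1 genotype in 4 of 9 member probe sets on U74Av2 (72.4% of all probe sets) and in 18 of 23 on MOE430v2 (70.2% of all). This held for 6 of 8 genes on the mean of both platforms (67% of all genes), all but Twist1 and Vim. The Vim value there joins platforms of opposite sign, so Twist1 was the member whose genotype difference was above its pool gap on each platform with the same sign.

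**Figure D3:**
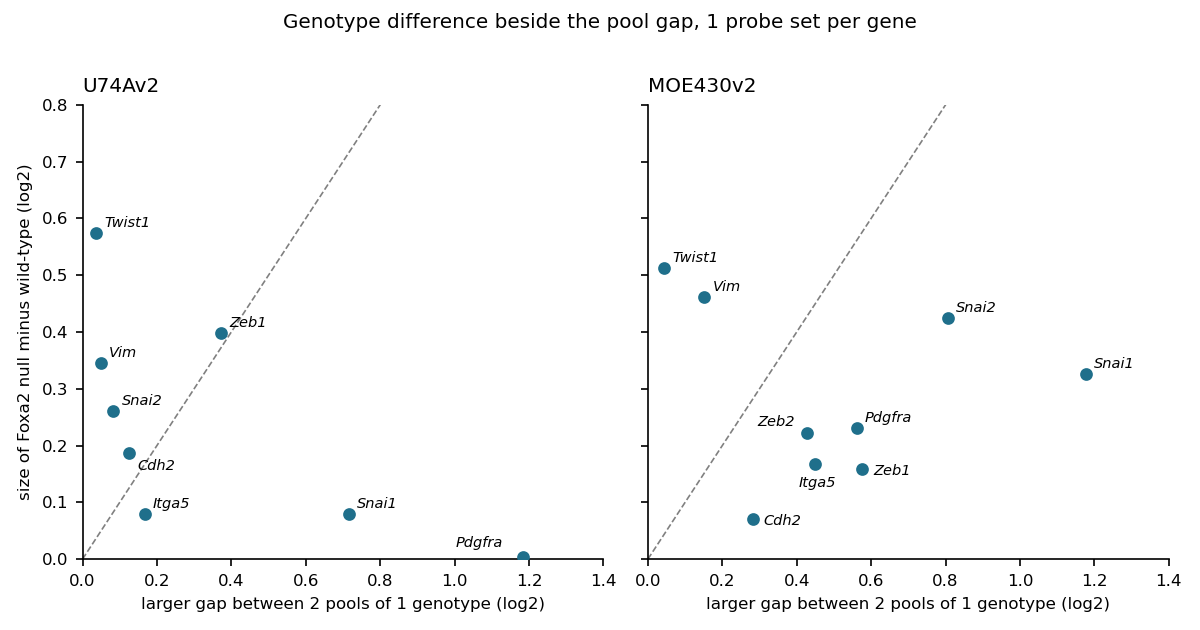
Size of the Foxa2 null minus wild-type difference (y, log2) against the larger gap between pools of the same genotype (x, log2) for each member gene, 1 probe set per gene, on U74Av2 (left) and MOE430v2 (right). The dashed line marks equal size. Twist1 and Vim lie well above the line on both platforms, Snai1 and Pdgfra well below it.

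Around these genes, 8 companion lists of 75 genes cover streak signals and factors, delamination, other transition factors, Pdgf ligands and receptors, adhesion partners, mesenchymal matrix and epithelial genes, and 70 were tested on at least 1 platform. None passed on a single platform by limma: 0 of 57 on U74Av2 and 0 of 68 on MOE430v2. At an unadjusted p under 0.05 there were 5 lower and 4 higher on U74Av2, beside 4.98% and 5.13% of all genes read by 1 probe set each. On MOE430v2 there were 11 of 68 lower and 9 of 68 higher, larger shares than the 7% and 6.27% of all genes. The lists were chosen with earlier results of these data known, so these shares are no independent result. Null pools lay below wild-type pools without overlap for 10 genes (17.5%) and above for 10 (17.5%) on U74Av2, where all genes gave 21.1% and 19.2%. On MOE430v2 they lay below for 21 (30.9%) and above for 12 (17.6%), where all genes gave 23.7% and 21.7%.

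There were 2 companion genes that passed on the mean of both platforms. Itgb1, the beta subunit that pairs with Itga5, rose in Foxa2 null embryos: it read 10.97 and 10.96 in Foxa2 null pools against 10.48 and 10.52 in wild-type pools on U74Av2, and 11.89 and 11.78 against 11.35 and 11.21 on MOE430v2. Its log2 ratio was 0.51 ± 0.10 (SE, limma adjusted p = 0.0309), and the call was lost without wild-type pool 1 (0.0779) or pool 2 (0.106), without the intensity trend of the fit (0.213), and with all probe sets of the gene averaged, where the ratio was 0.36 (0.201). Col1a1, a fibrillar collagen chain of mesenchyme, fell: it read 6.81 and 6.69 in Foxa2 null pools against 7.67 and 7.65 in wild-type pools on U74Av2, and 8.32 and 6.48 against 9.47 and 8.86 on MOE430v2. Its log2 ratio was -1.34 ± 0.28 (SE, limma adjusted p = 0.0396), and this call too was lost without wild-type pool 1 (0.117) or pool 2 (0.0593), without the trend (0.223) and with all probe sets averaged (0.0774). On MOE430v2 null pool 2 set much of its size, since the ratio was -0.85 without that pool and -2.69 without null pool 1, and on the mean of both platforms it was -0.85 without null pool 2.

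Streak factors and signals did not move as a block. Tbx6, a paraxial mesoderm factor, read 7.33 and 7.74 in Foxa2 null pools against 8.25 and 8.16 in wild-type pools on U74Av2 (log2 ratio -0.67) and had a ratio of -0.70 on MOE430v2. Wnt3a, a posterior streak ligand, had ratios of -1.04 and -0.48, and Msgn1, a factor of presomitic mesoderm read on MOE430v2 only, had -0.84. Eomes, in contrast, had ratios of 1.92 and 1.34, Mesp2 of 0.58 and 0.80, and Tdgf1, the Nodal co-receptor, of 1.81 and 2.21. On the mean of both platforms the limma adjusted p was 0.0819 for Tbx6, 0.0571 for Wnt3a, 0.108 for Eomes, 0.222 for Mesp2 and 0.106 for Tdgf1. These genes are named because their pools were separated on the platforms that read them, so that separation is no result. Over the whole lists on MOE430v2, null pools lay below without overlap for 1 of 7 signals and 3 of 7 factors. They lay above for 3 and 2, where all genes gave 23.7% below and 21.7% above. On U74Av2 they lay below for 2 of 8 and 1 of 5, and above for 3 and 2 (all genes: 21.1% and 19.2%). The streak factor list had a median of 0.58 on U74Av2 (5 genes) and 0.00 on MOE430v2 (7 genes).

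Ligands and the second receptor of the Pdgf system were below 0 in 3 of 3 genes on U74Av2 (median -0.28), beside 3290 of all 6410 genes. They were below 0 in 5 of 5 on MOE430v2 (median -0.53), beside 7363 of all 14180 genes, with none called. Pdgfa, the ligand that epiblast and ectoderm supply to Pdgfra cells, read 8.37 and 8.03 in Foxa2 null pools against 8.70 and 8.38 in wild-type pools on U74Av2. On MOE430v2 it read 9.63 and 9.39 in Foxa2 null pools against 9.73 and 10.46 in wild-type pools, and on the mean of both its ratio was -0.46 (limma adjusted p = 0.153). Pdgfc, another ligand, had a ratio of -0.53 on MOE430v2.

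Other transition factors had ratios below 0 for 8 of 8 genes on MOE430v2 (median -0.26), where 7363 of all 14180 genes were below 0. On U74Av2 this held for 3 of 5 (median -0.15), where 3290 of all 6410 genes were below 0. Foxc1, at -0.64, and Sox9, at -0.35, were read on MOE430v2 only. Delamination genes lay close to 0, between -0.06 and 0.10 for 8 genes on MOE430v2 and between -0.19 and 0.29 for 6 on U74Av2. Adhesion partners had medians of -0.11 on U74Av2 and -0.01 on MOE430v2, and epithelial genes of -0.02 and -0.03. Cldn3, a tight junction claudin, had the epithelial ratio farthest from 0: it read 5.15 and 6.10 in Foxa2 null pools against 8.02 and 8.44 in wild-type pools on MOE430v2 (log2 ratio -2.61, limma adjusted p = 0.06). On U74Av2 it had the opposite sign, with 5.51 and 5.51 in Foxa2 null pools against 5.23 and 5.27 in wild-type pools (log2 ratio 0.26), and no overlap on either platform. Among the other epithelial genes separated on all arrays that read them, the repressor of mesenchymal genes Ovol2 had a ratio of 0.33, the tight junction scaffold Tjp1 of -0.14 on U74Av2 and -0.11 on MOE430v2, and the epithelial factor Grhl2 of -0.04. Mesenchymal matrix genes had medians of -0.19 on U74Av2 and -0.21 on MOE430v2, the MOE430v2 value being -0.44 without its chromosome 8 genes, and with Col1a1 the collagen Col3a1 had a negative ratio (-0.98, MOE430v2 only).

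**Figure D4:**
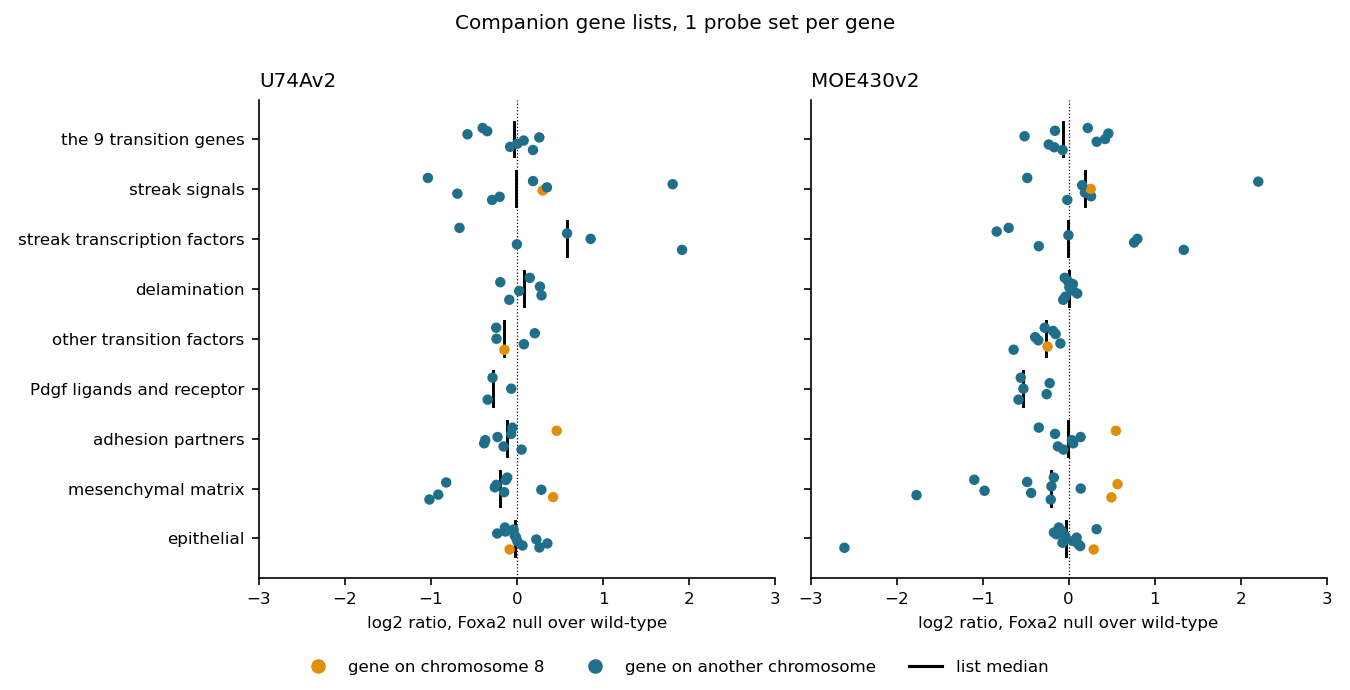
Log2 ratio, Foxa2 null over wild-type, of each gene (points, 1 probe set per gene) in the transition genes and in 8 companion lists, on U74Av2 (left) and MOE430v2 (right), with the list median as a bar. Orange points are genes on chromosome 8. The transition genes lie between -0.57 and 0.46 on both, and the Pdgf list lies below 0 on both.

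Most companion genes on chromosome 8 were higher in Foxa2 null pools, as were most genes of that chromosome. A smaller share of the companion genes elsewhere was higher. On MOE430v2, null pools were above wild-type pools in every comparison for 5 of 6 companion genes on it and 7 of 62 off it (21.7% of all genes). On U74Av2 this held for 3 of 5 on it and 7 of 52 off it (19.2% of all genes). Genes of chromosome 8 had a median log2 ratio of 0.32 on U74Av2 (344 genes) and 0.35 on MOE430v2 (734 genes), with 81.4% and 80.1% above 0. Medians of the other autosomes ran between -0.044 (chromosome 17) and 0.033 (chromosome 14) on U74Av2. On MOE430v2 they ran between -0.044 (chromosome 4) and 0.0034 (chromosome 10). Of the companion genes on it, Itgb1, Cdh11, Mmp2 and Fgfr1 were above wild-type in every comparison on the platforms that tested them, and with Cdh1 5 of the 6 tested on MOE430v2 were so. The 6 had a median of 0.39 there, the other 62 companion genes of -0.09, and the remaining chromosome 8 gene, Foxc2, had a ratio of -0.25. On MOE430v2 the mesenchymal cadherin Cdh11 had a ratio of 0.50, the gelatinase Mmp2 of 0.57 and the Fgf receptor Fgfr1 of 0.26. The part of chromosome 8 in the Itgb1 call was not tested. None of the 9 transition genes lies there: Snai1, Zeb2 and Vim are on chromosome 2, Snai2 on 16, Zeb1 and Cdh2 on 18, Twist1 on 12, Pdgfra on 5 and Itga5 on 15.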

How the data were processed

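Signal intensities per probe set were computed by the authors with MAS5, scaled to a common target per array, and deposited on a linear scale. Control probe sets were left out, signals of 0 (4 values) were set to 0.1, and log2 was taken. MOE430v2 arrays were normalized by cyclic loess, as the methods name a loess step, and U74Av2 arrays were used as scaled. The dimmest 30% of probe sets by mean were removed, leaving 8695 and 31526. Foxa2 null and wild-type were compared by limma 3.58.1 (linear fit, then two-sided moderated statistics whose prior variance follows the intensity) in R 4.3.3 with data.table (version 1.17.8), with Benjamini-Hochberg adjustment over all probe sets tested and a threshold of 0.05. For genes on both platforms, log2 values of the probe set with the highest mean signal were averaged per extract.

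Every tested probe set of the members is given. Companion genes are named if called, or among the 4 with the largest ratio in either direction of a list with pools separated on every platform that tested them. Outside this rule, Mesp1, Mixl1 and Cdh1 were chosen after their values were seen. Foxc2 is named as the remaining companion gene on chromosome 8. Gene names and chromosomes came from the platform annotation and a GRCm38.p6 table. The members and lists were chosen with earlier results of these data known. Probe sets for T, Crb2 and Klf8 were not analysed here. Present calls and probe-level values were not used. By the study's supplement U74Av2 arrays were hybridized on 2 days, each with 1 array of each genotype, but the labels do not tie pools to days. Nothing in the labels says that same-numbered pools were collected together, so the main fit took the pools as unpaired. Its p-values rest on the spread between pools, moderated towards that of probe sets of like intensity. Alternatives changed normalization, offset, filter, trend, block and pools. The fit was tested on simulated data.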

Additional observations from a re-analysis of the deposited data

How the results depend on the processing

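Of 165 values recomputed for the transition genes under other settings than leaving out a pool, 162 kept their sign and their side of the threshold. Cyclic loess turned Pdgfra on U74Av2 to -0.013. No member was called under any setting except a block on pool number. With the replicate block 1 member probe set passed on MOE430v2 (Vim, higher, limma adjusted p = 0.00121) and 1 gene on the mean of both platforms (Twist1, lower, limma adjusted p = 0.0197), among 1643 and 502 calls in all. The pools share only a number: their deviations from the genotype means correlated at 0.11 on U74Av2 and 0.085 on MOE430v2, and with 2 pools this does not pair them. With the pools crossed as a block, Twist1 had an adjusted p of 0.133. Over all settings the limma adjusted p ran between 0.0197 and 0.223 for Twist1 on the mean of both platforms and between 0.00121 and 0.515 for Vim on MOE430v2. The replicate block also called Itgb1 (limma adjusted p = 0.0408 and 0.000927), Col1a1 (0.0117 and 3.24e-05) and Foxa2 (0.00154 and 0.00155) on U74Av2 and MOE430v2. With the pools crossed as a block, none of these was called on either platform. The limma adjusted p was then 0.2949 and 0.1161 for Itgb1, 0.1545 and 0.1441 for Col1a1, and 0.08635 and 0.1365 for Foxa2.

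Leaving out each pool in turn gave 0 member calls and reversed 18 of 100 values, with these ranges. Snai1 ran between -0.28 and 0.44 on U74Av2, -0.26 and 0.91 on MOE430v2 and -0.19 and 0.60 on both. Pdgfra ran between -0.59 and 0.60, -0.51 and 0.050, and -0.55 and 0.32. Itga5 ran between -0.16 and 0.0042, -0.39 and 0.058, and -0.27 and 0.020. Zeb1 on MOE430v2 ran between -0.45 and 0.13, and Cdh2 between -0.21 and 0.071 there and -0.012 and 0.13 on both. Twist1 stayed between -0.59 and -0.49. The member median on U74Av2 ran between -0.26 (without Foxa2 null pool 2) and 0.080. The cause was not tested for any of these.

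Without the intensity trend the calls on both platforms were lost for Itgb1 (limma adjusted p = 0.213), Col1a1 (0.223) and Foxa2 (0.195). Averaging all probe sets of a gene also ended the calls of Itgb1 (0.201) and Col1a1 (0.0774). Without genes of chromosome 8, an alternative chosen after seeing the data, the mesenchymal matrix median on MOE430v2 was -0.44. Dim probe sets, such as Vim on U74Av2, limit what their ratios can show.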
